A study of Homo sapiens with 4 samples.

Results

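The LINC RNAs described here are 121 genes that carry a provisional LINC symbol, the form used for long intergenic non-coding RNAs, and were expressed in H9 cells. H9, also named WA09, is an established human embryonic stem cell (hESC) line. Of 1853 genes with such a symbol in the count files, 974 had at least 1 read in any library. The members were chosen by their level, a mean of at least 1 CPM (reads per 1000000 reads assigned to genes) over all 4 libraries. LINC01108 and LINC00458, with means of 6.22 and 21.8 CPM, also reached it and were left out by name. The level and the selection are therefore a description and no finding. Just inside the threshold were LINC01145, LINC00173 and LINC00852 at 1.08, 1.05 and 1.02 CPM, and just outside it LINC01569, LINC00858 and LINC01456 at 0.983, 0.969 and 0.947 CPM. All 121 members passed the filter on low counts and were tested.

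The libraries were 2 from cells with the genotype control and 2 from cells with SLC35F2 knocked out (KO), all of H9 origin, made from RNA with a stranded poly(A) protocol. The sources used here do not give how the knockout was made, what the control cells carry, whether the KO cells are 1 clone or whether replicates were separate cultures. The p-values therefore measure the spread between these libraries, which may be technical. SLC35F2 encodes a membrane transporter of the solute carrier family. Its comparison with control asks which RNAs differ when it is missing.

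Long intergenic non-coding RNAs are transcripts that are spliced and polyadenylated much like messenger RNAs but are not known to encode a protein, and a LINC symbol is mostly a placeholder for a gene whose function is unknown. As a class they are less abundant and more restricted to particular cell types than messenger RNAs. Some start beside the promoter of a coding gene, some are precursors of a microRNA or a circular RNA, and in pluripotent cells many start in long terminal repeats of the HERV-H family of endogenous retroviruses.

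Assigned reads ranged from 27824693 to 37978705 per library. CPM values from here on are scaled with TMM factors, except where the scale of the level rule is named. SLC35F2 itself stood at 41.1 and 27.1 CPM in control cells and, after the knockout, at 12.1 and 9.65 CPM in KO 1 and KO 2, a log2 fold change of -1.65 ± 0.35 (SE; edgeR adjusted p = 0.580). RNA of the targeted gene was thus lower in both KO libraries but not gone, and the sequence of the transcripts was not analysed here. All 10 pluripotency markers, among them POU5F1, SOX2 and NANOG, had reads in every library. Their summed level was 8290, 8497 and 8818 CPM in control 1, control 2 and KO 1, and 6027 CPM in KO 2. Markers of other cell types moved between libraries of the same group: the 5 neuroectoderm markers summed to 587, 911, 630 and 1145 CPM and the 6 fibroblast markers to 541, 874, 570 and 1113 CPM, in the same order. Single genes carried much of these sums. In KO 2, 1 neuroectoderm marker alone reached 919 CPM, and the highest value of a fibroblast marker in any library was 552 CPM. Only 4 markers of each of these lists had reads in all libraries. The 5 mesoderm markers stayed between 0.790 and 7.23 CPM, the 5 endoderm markers between 2.15 and 4.73 CPM and the 5 trophoblast and amnion markers between 14.3 and 19 CPM, with CGA at 0 reads throughout. The part of these shifts in the results below was not tested.

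In the annotation, 92 members were of the biotype lincRNA, 12 processed transcripts, 8 antisense RNAs, 5 transcribed unprocessed pseudogenes and 2 bidirectional promoter RNAs. A transcribed unitary pseudogene and LINC00672, which the annotation calls protein coding, completed the set. Since the sources used here do not give the strand setting of the counting, for the 16 members antisense to a coding gene and the 10 that overlap one on the same strand, reads of the neighbour may be included. RefSeq gave a promoter window for 77 members, 67 by the same symbol and 10 by a newer one. For some of them the RefSeq start lay far from the GENCODE start, by up to 179048 bases for LINC00877 and 169310 bases for LINC00540. Their windows are included in the shares below. Each window holds 300 bases, mostly upstream of the RefSeq start and ending just past it, on GRCh38.p14. Of these windows 44.2% held the CCAAT box (CCAAT, either strand), against 34.6% of all 35116 promoters in the table. The TATA box (TATAAA, either strand) was in 7.79% against 11.5%, and the octamer bound by POU factors (ATGCAAAT, either strand) in 1.30% against 1.77%. The letters TGCGCNC (either strand), a spelling of the metal response element core, were in 14.3% against 19.97%. The median GC content was 59.0% against 58.7%.

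The windows of 6 members are shown as examples of the patterns between libraries described below. LINC01356 and LINC02334 were lower in both KO libraries, LINC02570 was higher in both, LINC01089 was low in KO 2 alone, and LINC00664 and LINC01833 were low in KO 1 and high in KO 2. All are written 5′ to 3′ on the gene's strand, with capitals only where CCAAT or its complement ATTGG was found.
LINC01356 (GRCh38.p14, chr1:112850594-112850893, minus strand): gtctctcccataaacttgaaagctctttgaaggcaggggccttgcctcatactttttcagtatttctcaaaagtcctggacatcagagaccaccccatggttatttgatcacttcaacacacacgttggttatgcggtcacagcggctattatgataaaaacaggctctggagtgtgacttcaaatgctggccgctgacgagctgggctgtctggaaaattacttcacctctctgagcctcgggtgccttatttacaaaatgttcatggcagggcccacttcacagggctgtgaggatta
LINC01089 (GRCh38.p14, chr12:121802897-121803196, minus strand): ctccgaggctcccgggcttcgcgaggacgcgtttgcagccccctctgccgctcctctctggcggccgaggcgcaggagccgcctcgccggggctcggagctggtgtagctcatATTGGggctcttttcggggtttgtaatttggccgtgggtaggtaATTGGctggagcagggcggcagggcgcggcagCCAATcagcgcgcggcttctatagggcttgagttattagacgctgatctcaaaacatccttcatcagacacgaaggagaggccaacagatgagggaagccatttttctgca
LINC02334 (GRCh38.p14, chr13:37934198-37934497, plus strand): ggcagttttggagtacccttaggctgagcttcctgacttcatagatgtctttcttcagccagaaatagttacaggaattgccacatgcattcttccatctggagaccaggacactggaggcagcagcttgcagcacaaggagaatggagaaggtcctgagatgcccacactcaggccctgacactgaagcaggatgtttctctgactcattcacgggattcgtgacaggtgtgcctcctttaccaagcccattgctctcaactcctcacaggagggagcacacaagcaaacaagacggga
LINC00664 (GRCh38.p14, chr19:21483465-21483764, plus strand): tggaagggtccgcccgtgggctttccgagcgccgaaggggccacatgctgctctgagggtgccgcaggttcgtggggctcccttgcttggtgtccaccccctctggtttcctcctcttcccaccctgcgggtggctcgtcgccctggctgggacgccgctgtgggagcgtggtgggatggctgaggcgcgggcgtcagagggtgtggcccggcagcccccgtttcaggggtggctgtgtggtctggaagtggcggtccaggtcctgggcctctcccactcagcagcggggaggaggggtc
LINC02570 (GRCh38.p14, chr6:30848110-30848409, minus strand): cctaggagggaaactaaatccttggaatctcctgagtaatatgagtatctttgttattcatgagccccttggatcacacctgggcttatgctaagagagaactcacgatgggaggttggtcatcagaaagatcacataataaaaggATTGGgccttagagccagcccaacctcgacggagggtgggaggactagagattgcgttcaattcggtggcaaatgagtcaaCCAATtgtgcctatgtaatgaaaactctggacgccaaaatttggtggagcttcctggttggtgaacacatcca
LINC01833 (GRCh38.p14, chr2:44939150-44939449, minus strand): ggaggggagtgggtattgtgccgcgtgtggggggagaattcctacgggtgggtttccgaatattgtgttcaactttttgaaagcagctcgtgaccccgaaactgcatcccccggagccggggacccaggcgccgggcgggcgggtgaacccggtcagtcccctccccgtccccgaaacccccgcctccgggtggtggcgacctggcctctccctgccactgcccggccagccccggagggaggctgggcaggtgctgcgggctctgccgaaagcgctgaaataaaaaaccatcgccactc
The printed windows of LINC01356, LINC02334, LINC00664 and LINC01833 held none of the 4 motifs. LINC02570 had 2 CCAAT boxes and LINC01089 had 3. LINC01833, LINC01089 and LINC00664 had 24, 24 and 20 CpG dinucleotides in 300 bases, while LINC01356, LINC02570 and LINC02334 had 6, 6 and 3. The RefSeq start lay at the GENCODE start for LINC01356, LINC02570 and LINC01833, and 117, 341 and 960 bases from it for LINC02334, LINC00664 and LINC01089. A match describes letters in a window and not a bound site.

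Most members were scarce. On the scale of the level rule, the median of their mean levels was 2.49 CPM, against 21.5 CPM for the 15067 tested genes averaging 1 CPM or more. Only 16 members reached 10 CPM and only LINC00678 exceeded 100 CPM, while 48 lay between 1 and 2 CPM. Per kilobase of merged exons (227 to 28876 bases, median 3115), LINC00678 stood at 147 CPM per kb, followed by LINC01356 at 14.2, LINC00665 at 13.8, LINC01405 at 10.2 and LINC01224 at 9.85.

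Summed over all members, the controls held 945.8 and 983.3 CPM, KO 1 held 838.9 CPM and KO 2 held 683.2 CPM, a log2 ratio of -0.34 between the group means. The ratio was -0.20 without KO 2 and -0.48 without KO 1. Both KO libraries lay below both controls. LINC00678 alone made up 24.1% and 25.7% of the sum in the controls, 18.9% in KO 1 and 6.55% in KO 2. Without it the sums were 718.2, 730.9, 680.6 and 638.5 CPM, and the log2 ratio was -0.14. In bulk RNA, fewer cells that express a gene and less RNA per cell cannot be told apart.

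LINC00678 (ENSG00000254934.4, GRCh38 chromosome 11, 27617626 to 27634627, minus strand), an intergenic RNA known for its abundance in human pluripotent cells, was the member with the highest level in 3 of the 4 libraries. Its controls stood at 227.5 and 252.5 CPM, KO 1 at 158.3 CPM and KO 2 at 44.8 CPM. The groups did not overlap, but KO 2 was far lower than KO 1. The log2 fold change was -1.24 ± 0.52 (SE; 95% interval -2.46 to -0.03), with an edgeR adjusted p of 0.997. It is one of 5 RNAs on a list of HERV-H and pluripotency transcripts, and all 5 were lower in both KO libraries, with a median log2 fold change of -3.80. That list was known from earlier results of these data to be low in KO, so this count gives no independent support.

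**Figure D1:**
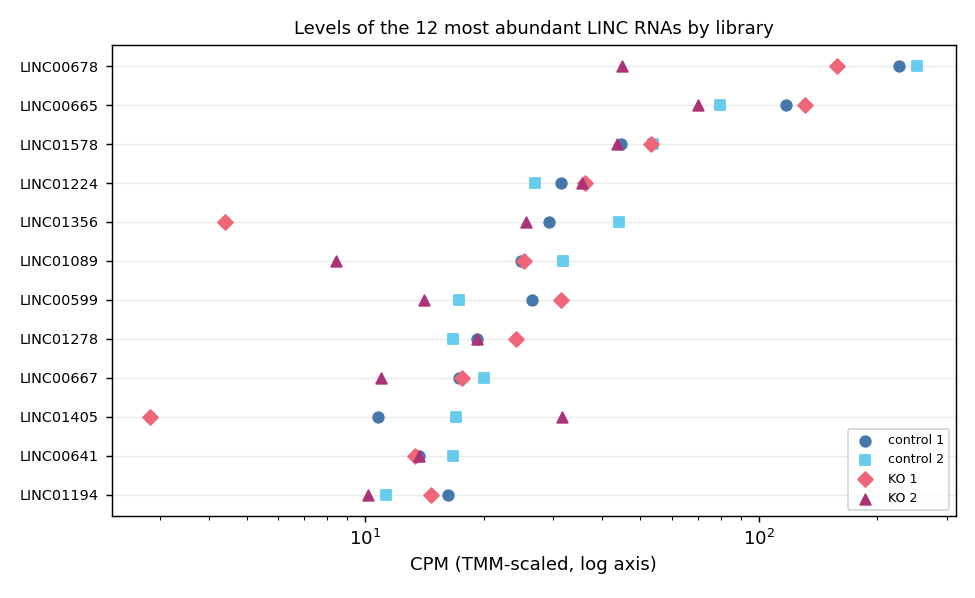
Levels of the 12 LINC RNAs with the highest mean, in TMM-scaled CPM on a log axis, with 1 marker for each of the 4 libraries. LINC00678 ran from 252.5 CPM in control 2 to 44.8 CPM in KO 2, LINC01356 and LINC01405 had their lowest value in KO 1, and LINC01578 and LINC01278 stayed within a narrow range.

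The plot of the 12 most abundant members shows that most of the others overlapped between groups. LINC00665, known mainly from work on tumours, ranked next at 117, 79.8, 131 and 69.9 CPM in control 1, control 2, KO 1 and KO 2. Replicates of each group differed more than the groups did, and its log2 fold change was 0.03. LINC01578, now named CHASERR, lies upstream of the chromatin remodeller gene CHD2 and is known to restrain it. It stood at 44.8, 53.8, 53.2 and 43.5 CPM and its log2 fold change of -0.03 had a 95% interval of -0.67 to 0.61, a narrow interval for this set. LINC00599, now MIR124-1HG, the host transcript of a microRNA known from neurons, was at 26.4, 17.3, 31.4 and 14.1 CPM. Its groups overlapped, and the 95% interval around its log2 fold change of 0.05 was -0.93 to 1.03.

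The other abundant members fell into a steady and an unsteady set. LINC01224 was at 31.4 and 27.0 CPM without the knockout and at 36.1 and 35.5 CPM with it, higher in both but by a log2 fold change of only 0.29. LINC01278 (0.27), LINC00667 (-0.39), LINC00641 (-0.17) and LINC01194 (-0.15) also had small log2 fold changes. LINC01356, an intergenic RNA on chromosome 1, was at 29.3, 44, 4.40 and 25.7 CPM. Its low value belonged to KO 1, and KO 2 lay only just under control 1, with a log2 fold change of -1.27 ± 0.69 (SE). LINC01089, which starts 0.274 kb from the histone methyltransferase gene SETD1B in the opposite direction, showed the other pattern at 24.9, 31.7, 25.3 and 8.42 CPM, with KO 2 alone low. LINC01405 was at 10.8, 17.0, 2.84 and 31.7 CPM, so the KO libraries lay on either side of both controls.

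Across all 121 members, edgeR called none as changed at an adjusted p of 0.05, and called 5 genes among all 19027 tested, which is 0.0263%. The smallest adjusted p of a member was 0.162. At an unadjusted edgeR p under 0.05 there were 9 members lower in KO (7.44%) and 0 higher, against 3.0% and 1.06% of all genes tested. Of the 9, 5 had a KO mean under 1 CPM on the scale of the level rule and so met the rule only through the controls, which fixed their direction. limma-voom also called 0 members, and DESeq2 called 2 lower (1.65%), against 0.294% of all genes, and 0 higher. Both of those 2 likewise met the rule only through the controls, so their direction too was fixed by the choice. The standard error of a member's log2 fold change ran from 0.28 to 1.51 with a median of 0.56, so the 95% interval of a typical member reached past 2-fold in either direction around its estimate.

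The median log2 fold change of the members was -0.13, against 0.03 for all genes tested and 0.07 for those with a mean of at least 1 CPM. It was below 0 for 70 members (57.9%), against 47.2% of all genes tested. Both KO libraries lay below both controls for 28 members (23.1%) and above both for 15 (12.4%), and the other 78 overlapped. Through the higher group alone, 7 of the 28 and 1 of the 15 met the level rule. Over all genes tested these shares were 16.3% and 15.8%, and over those with a mean of at least 1 CPM 13.7% and 18.1%. Among the 90 members with a mean from 1 to 5 CPM, 21.1% lay below and 14.4% above both controls in both KO libraries, against 22.7% and 8.36% of the 3482 genes in the same range. The share that was lower was thus close to that of other genes as scarce as these.

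The split between lower and higher members moved with the scaling. With TMM factors 28 were lower and 15 higher, or 65.1% lower. Upper-quartile factors gave 35 and 9, library sizes alone gave 32 and 9, and quantile normalisation gave 20 and 23, or 46.5% lower. The same shares over all genes under these other scalings are not given here, only their medians. With library sizes alone the median of all genes tested moved from 0.03 to -0.10, and that of the members from -0.13 to -0.26. With quantile normalisation these medians were 0.03 and -0.0081.

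**Figure D2:**
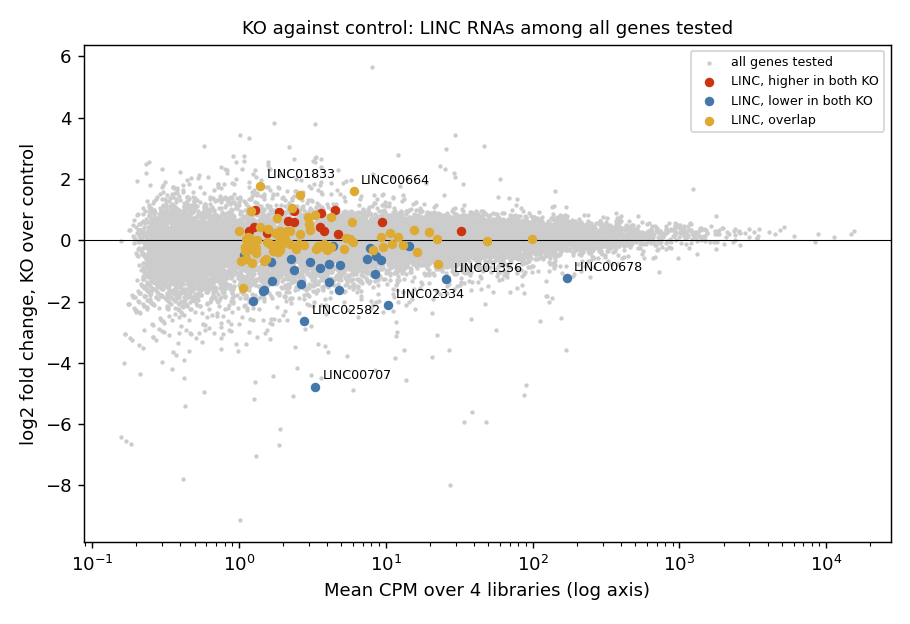
Log2 fold change of KO over control against the mean level in CPM (log axis) for all 19027 genes tested (grey) and the 121 LINC RNAs, coloured by whether both KO libraries lay below, above or among the controls. Among the LINC RNAs marked, LINC00707, at -4.78, lies farthest below 0, and the 78 members with overlapping groups spread on both sides of 0.

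The member with the smallest p was LINC00707 (ENSG00000238266.1, chromosome 10, 6779549 to 6879450, plus strand), an intergenic RNA. It had 248 and 219 reads in the controls, 11 in KO 1 and 3 in KO 2, or 6.57, 6.16, 0.400 and 0.0877 CPM. The controls were close to each other and both KO libraries lay far below them. Its log2 fold change was -4.78 ± 0.73 (SE; 95% interval -6.43 to -3.13), or 27.4-fold lower, with an edgeR adjusted p of 0.162. DESeq2 gave an adjusted p of 1.8e-08. It was also called by edgeR without KO 1 (adjusted p = 2.0e-07) and without KO 2 (adjusted p = 2.4e-04), each time with the remaining KO library assumed to vary like the controls. Across the alternatives its edgeR adjusted p ran up to 0.674, without control 1.

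LINC02582 (ENSG00000261780.2, chromosome 18, 73324941 to 73349878, plus strand), a processed transcript more than 50 kb from any coding gene, was the other member that DESeq2 called. Its controls stood at 3.39 and 6.19 CPM, against 0.946 CPM for KO 1 and 0.614 CPM for KO 2. The KO libraries were close to each other, and the controls differed more. The log2 fold change was -2.63 ± 0.63 (SE; 95% interval -4.06 to -1.21), with an adjusted p of 0.808 by edgeR and 0.00907 by DESeq2.

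LINC02334 (chromosome 13, 37934565 to 38048169, plus strand), whose promoter is printed above, was the most abundant member with a log2 fold change below -2. Control 1 and control 2 had 15.1 and 18.5 CPM, against 6.98 CPM for KO 1 and 0.965 CPM for KO 2. The groups did not overlap, and KO 2 was 17.4-fold below the control mean while KO 1 was 2.40-fold below it. LINC02575 on chromosome 21 was at 6.44, 7.97, 3.16 and 1.55 CPM. LINC00632, the host transcript of the circular RNA CDR1as on chromosome X, was at 1.93, 2.05, 0.618 and 0.410 CPM. Their log2 fold changes were -2.12 ± 0.71, -1.63 ± 0.52 and -1.97 ± 0.62 (SE), each with an edgeR adjusted p of 0.997. Circular RNAs have no poly(A) tail, so the reads of LINC00632 would describe its linear host. LINC00632 overlaps a coding gene antisense, so reads of that gene may be included.

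LINC00428, the shortest member at 227 exonic bases, was at 1.17, 3.24, 0.836 and 0.585 CPM, with control 1 nearer to KO 1 than to control 2. LINC00648 was at 1.85, 2.73, 0.109 and 1.29 CPM, with 3 reads in KO 1. LINC00941, known from work on the differentiation of epidermal cells, was at 3.29, 4.42, 2.29 and 0.673 CPM. These 8 RNAs had the lowest log2 fold changes among members whose groups did not overlap. Of the 8, all but LINC00648 (0.0673) and LINC00941 (0.0526) had an unadjusted edgeR p under 0.05. LINC01090 (11.3, 11.7, 4.15 and 6.49 CPM) and LINC00882 (2.01, 2.79, 0.836 and 1.05 CPM) were picked after their values were seen. With LINC00678, they were the remaining members with an unadjusted edgeR p under 0.05. LINC00467, known mainly from tumours, was at 6.41, 5.91, 4.11 and 3.04 CPM, with a log2 fold change of -0.79.

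**Figure D3:**
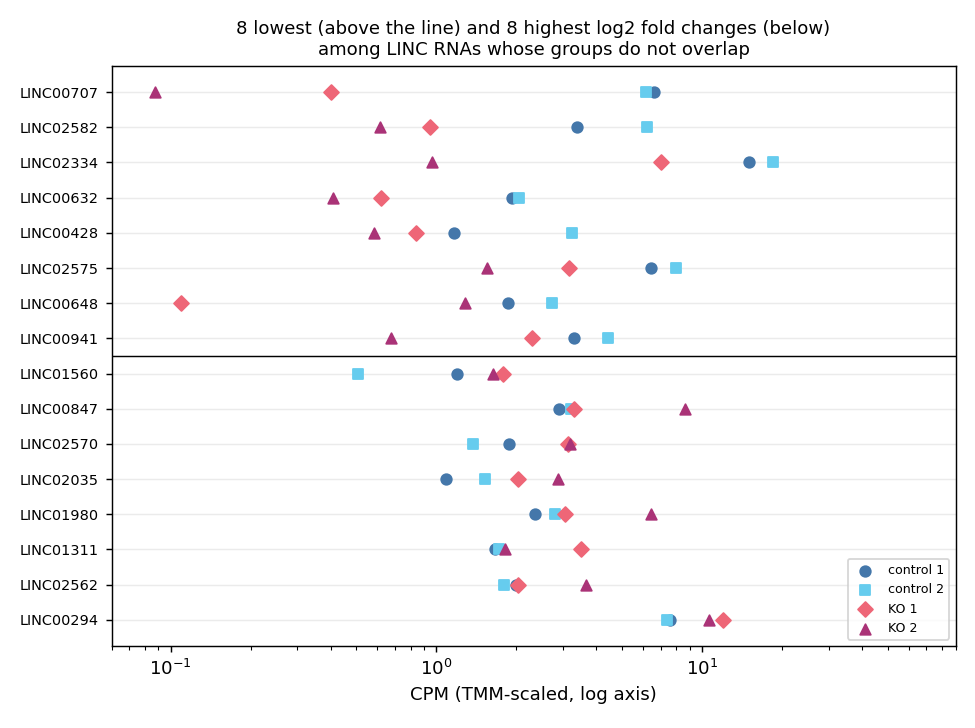
Levels in TMM-scaled CPM (log axis) of the 8 LINC RNAs with the lowest and the 8 with the highest log2 fold change among those whose groups do not overlap, with 1 marker per library. The gap between groups is wide for LINC00707 and LINC02582 and narrow for LINC00847, LINC01311 and LINC02562, where 1 KO library lies beside the controls.

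A total of 7 members lay at least 2-fold below the control mean in both KO libraries, LINC00707, LINC02582, LINC02334, LINC02575, LINC00632, LINC00428 and LINC00882. This was 5.79% of the members, against 1.88% of the genes of 1 CPM or more on average. Those genes were more abundant than the members, and no share at a like level is given for this count. Of the 7, 5 met the level rule only through the controls, all but LINC02334 and LINC02575. Among all members, a total of 13 members had a KO mean under 1 CPM on that rule's scale and a log2 fold change below 0, and 4 had a control mean under 1 CPM and one above 0. All of these met the level rule only through the higher group, so their direction was fixed by the choice. No member lay at least 2-fold above the control mean in both KO libraries.

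Differences in the other direction were small. The 8 highest log2 fold changes among members whose groups did not overlap ran from 0.59 to 0.99, and none of these 8 had an unadjusted edgeR p under 0.05. LINC02570 (ENSG00000237923.1, chromosome 6, 30839526 to 30848159, minus strand), with its promoter printed above, had the smallest p among them. The controls stood at 1.88 and 1.38 CPM, KO 1 at 3.13 CPM and KO 2 at 3.19 CPM. The KO libraries nearly coincided, and the log2 fold change was 0.95 ± 0.52 (SE; 95% interval -0.22 to 2.12; edgeR adjusted p = 0.997). LINC00294 (7.61, 7.40, 11.96 and 10.6 CPM) and LINC02035 (1.09, 1.52, 2.04 and 2.87 CPM) were also apart from the controls in both KO libraries. LINC01560 had controls more than 2-fold apart (1.19 and 0.507 CPM) beside KO values of 1.78 and 1.64 CPM. LINC00847 (2.89, 3.21, 3.31 and 8.63 CPM), LINC01980 (2.36, 2.79, 3.05 and 6.41 CPM) and LINC02562 (1.99, 1.8, 2.04 and 3.66 CPM) stood apart from the controls mainly in KO 2. LINC01311 (1.67, 1.72, 3.49 and 1.81 CPM) did so mainly in KO 1.

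The KO libraries differed from each other more than the controls did. They were at least 2-fold apart for 50 members (41.3%) and the controls for 13 (10.7%), against 20.3% and 7.27% of all genes averaging 1 CPM or more. In the range from 1 to 5 CPM the shares were 44.4% and 14.4% of 90 members, against 40.4% and 19.1% of 3482 genes, so at a like level the LINC RNAs stood near the background. KO 2 was the lowest library for 50 members (41.3%, against 32.3% of all genes tested) and KO 1 for 37 (30.6%, against 24.8%). Control 1 was lowest for 19 (15.7%, against 16.4%) and control 2 for 15 (12.4%, against 26.5%). Taken 1 library at a time, KO 1 was at least 2-fold below the control mean for 25 members (20.7%, against 7.01% of genes averaging 1 CPM or more) and KO 2 for 26 (21.5%, against 9.94%). KO 1 was at least 2-fold above it for 3 (2.48%, against 0.670%) and KO 2 for 15 (12.4%, against 5.16%). For these counts, taken 1 library at a time, no share at a like level is given.

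For 9 members KO 1 was at least 2-fold below and KO 2 at least 2-fold above the control mean (7.44%, against 0.962% of genes averaging 1 CPM or more). The members were scarcer than those genes (median 2.49 against 21.5 CPM), and no share at a like level is given for this count. These 9 were singled out after their values were seen. LINC00664 (ENSG00000268658.4, chromosome 19, 21483374 to 21503238, plus strand), among the zinc finger genes of that chromosome, had 90 and 132 reads in the controls, 0 in KO 1 and 624 in KO 2. With a floor of 3 reads in KO 1, its control mean was at least 28.0-fold higher than KO 1, and KO 2 was 5.98-fold above the control mean. LINC01515 on chromosome 10 had 49, 53, 0 and 260 reads, at least 12.8-fold lower in KO 1 by the same floor and 5.45-fold higher in KO 2. The labels place both KO libraries in 1 group, yet for these RNAs neither library resembled the other.

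LINC01405, described above, and LINC01234 (1.48, 2.98, 0.836 and 6.46 CPM), LINC02525 (0.874, 2.22, 0.255 and 5.88 CPM) and LINC01139 (1.32, 1.49, 0.364 and 3.13 CPM) had the same order. LINC00963, another RNA known mainly from tumours, was at 0.822, 2.0, 0.327 and 4.12 CPM, and LINC00663, on chromosome 19, at 0.398, 1.32, 0.364 and 2.78 CPM. LINC01833 was at 0.689, 0.591, 0.255 and 4.01 CPM, 6.26-fold above the control mean in KO 2. By the same 2-fold limits, LINC00852 (0.636, 1.13, 1.89 and 0.380 CPM) was the 1 member high in KO 1 and low in KO 2. LINC00663, LINC01833 and LINC00852 had control means of 0.860, 0.640 and 0.881 CPM. They met the level rule only through the KO libraries, which favoured high values there. LINC02335 (6.04, 5.35, 8.77 and 0.790 CPM) and LINC01950 (4.74, 6.92, 4.18 and 0.497 CPM) were low in KO 2, and KO 1 was above both controls for the first and below both for the second.

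**Figure D4:**
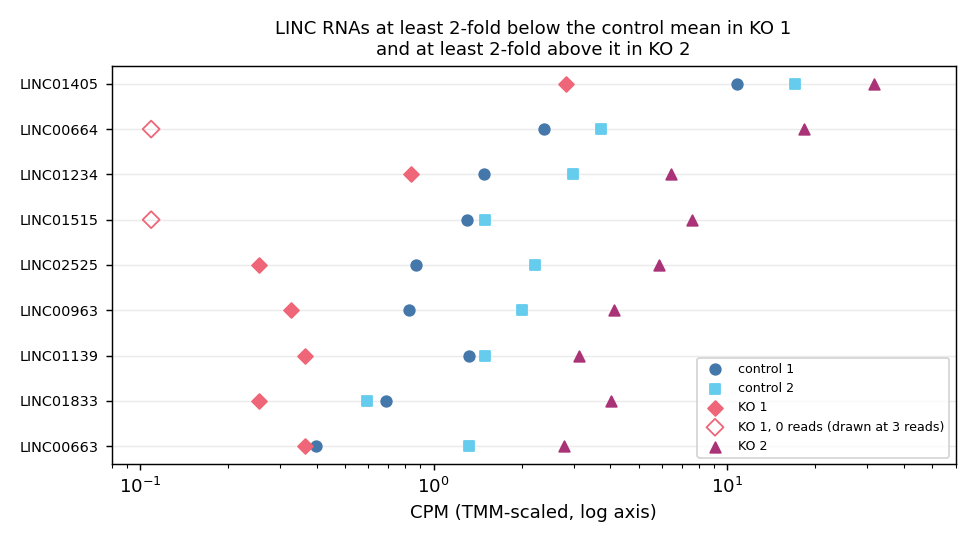
Levels in TMM-scaled CPM (log axis) of the 9 LINC RNAs that were at least 2-fold below the control mean in KO 1 and at least 2-fold above it in KO 2. Open markers stand for 0 reads and are drawn at the level of 3 reads, and in each RNA both controls lie between the KO libraries.

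Leaving out 1 KO library changed the calls. Without KO 1, edgeR called 12 members lower (2.96% of all genes tested were) and 6 higher (2.35%). Among those lower were LINC02334 (log2 fold change -4.10), LINC01950 (-3.53), LINC00680 (-3.10), LINC00678 (-2.41) and LINC01089 (-1.73). Among those higher were LINC01833 (2.65), which met the level rule only through the KO libraries, LINC00664 (2.6), LINC01515 (2.46) and LINC00847 (1.51). Without KO 2, 6 members were called lower (0.843% of all genes) and 0 higher, among them LINC00648 (-4.34), LINC01356 (-3.06) and LINC01405 (-2.29). Among members called in both fits, the directions were opposite for LINC01405 (1.20 without KO 1, -2.29 without KO 2), LINC00664 (2.6, -9.68) and LINC01515 (2.46, -8.55). LINC00707, the other member called in both, was lower each time (-6.11, -3.98). No share of all genes tested is given for calls in both fits, in like or in opposite directions. Whether the members differ from other genes in this was therefore not tested. Among the members called lower in either fit, LINC00707, LINC00648, LINC02582 and LINC01126 had a KO mean under 1 CPM. They met the level rule only through the controls, which favoured low values in KO.

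Members were also divided by position relative to coding genes. Of all 121, 10 started within 2 kb of a coding gene's start in the opposite direction (divergent), 16 overlapped a coding gene antisense, 10 overlapped one on the same strand, 31 lay within 50 kb of one and 54 farther away. Their median log2 fold changes were -0.48, -0.20, -0.07, 0.03 and -0.20. The members lower in both KO libraries numbered 3, 4, 1, 6 and 14 in these classes, and those higher numbered 2, 1, 1, 5 and 6. Over every gene tested the shares were 16.3% (lower) and 15.8% (higher). Over genes with a mean from 1 to 5 CPM, the range that held the median level of each class, they were 22.7% and 8.36%. On chromosome 19 there were 7 members, and for 6 of them the nearest coding gene was a zinc finger gene.

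For 70 members the nearest coding gene started within 100 kb and was tested. Distances to a neighbour are between gene starts. Member and neighbour had the same sign of log2 fold change in 37 of the 70 pairs, and in 4 of the 10 divergent pairs. Across the pairs Pearson's r was 0.36 and Spearman's rho 0.23, a description over genes that share the same 4 libraries. edgeR called 0 of these neighbours, and at an unadjusted p under 0.05 it had 4 lower and 2 higher.

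A few pairs stood out, chosen after their values were seen. LINC01833 lies 2.70 kb from SIX3, a transcription factor gene of the forebrain and eye, which was at 0.662, 0.310, 0.0364 and 7.81 CPM. Both RNAs were highest in KO 2 and lowest in KO 1, and LINC01833 met the level rule only through the KO libraries. The summed neuroectoderm (1145 CPM, of which 1 marker alone made 919 CPM) and fibroblast markers (1113 CPM) were also highest in KO 2. Between the controls, both sums were higher in control 2, and SIX3 and LINC01833 were higher in control 1. LINC01833 had only 26 and 21 reads in control 1 and control 2, so its order there says little. The part of these markers was not tested. For SIX3 the log2 fold change was 3.04 ± 1.41 (SE; edgeR adjusted p = 0.997). By its GENCODE start, LINC00941 starts 0.216 kb from CAPRIN2, an RNA-binding protein gene, in the opposite direction. Its RefSeq start lies 40514 bases from that start. CAPRIN2 was at 57.0, 176, 48.7 and 29.9 CPM, lower in both KO libraries like LINC00941, with the controls far apart. LINC02570 lies 28.3 kb from DDR1, which encodes a collagen receptor and was at 103, 100, 152 and 193 CPM. Both RNAs were higher in both KO libraries.

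**Figure D5:**
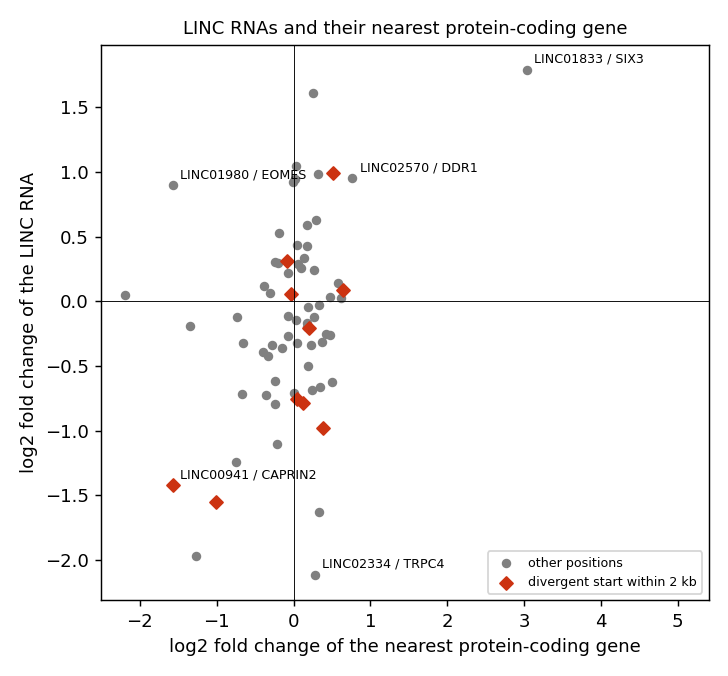
Log2 fold change of each of 70 LINC RNAs (vertical axis) against that of its nearest protein-coding gene starting within 100 kb (horizontal axis), with divergent pairs as diamonds. LINC01833 and SIX3 lie high on both axes, and LINC02334 and TRPC4 lie on opposite sides of 0.

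Other neighbours had patterns unlike that of their LINC RNA. SETD1B, beside LINC01089, was at 34.3, 34.3, 43.9 and 27.3 CPM with a log2 fold change of 0.05. TRPC4, a cation channel gene 64.1 kb from LINC02334, was at 36.0, 36.1, 39.5 and 48.0 CPM and so was highest where LINC02334 was lowest. ZNF429 is a zinc finger gene on the same strand as LINC00664, with starts 13.3 kb apart. LINC00664 overlaps a coding gene on its own strand, so reads of the neighbour may be included. ZNF429 was at 7.08, 8.81, 7.20 and 11.7 CPM, without the 0 that LINC00664 had in KO 1. EOMES, a transcription factor gene of mesendoderm 74.9 kb from LINC01980, was at 1.03, 2.36, 1.20 and 0.0292 CPM, lowest in KO 2 where LINC01980 was highest. BDNF differed from these. The neurotrophin gene lies 87.4 kb from LINC00678 and was at 6.28, 7.32, 3.85 and 4.21 CPM, lower in both KO libraries, as LINC00678 was.

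Well-known long non-coding RNAs without a LINC symbol were counted in the same way. Of 45 on a list, 40 were tested. In both KO libraries 9 lay below (22.5%) and 2 above (5.0%) both controls, against 16.3% and 15.8% of all genes tested, and the median log2 fold change was -0.20. edgeR called 0 of them (before adjustment, 1 lower and 1 higher had a p under 0.05) and DESeq2 called 1, which was lower, against 0.294% of all genes called lower. The 3 that follow were picked after their values were seen. NEAT1, the scaffold of nuclear paraspeckles, was at 18.8, 33.7, 3.75 and 7.34 CPM, lower in both KO libraries. MIR17HG, the host of a microRNA cluster known to promote proliferation, was at 44.5, 38.1, 35.5 and 3.86 CPM, with KO 2 alone far below the controls. NORAD, a cytoplasmic RNA known for binding PUMILIO proteins, was at 244, 282, 282 and 308 CPM, with a log2 fold change of 0.17.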

How the data were processed

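Polyadenylated RNA of 2 control and 2 KO libraries was compared, each placed in its group by its title. The authors deposited unnormalised read counts, whole numbers per gene, for 60483 gene identifiers. Per the submitters' processing notes, reads were handled with HTSeq 0.11.0, STAR 2.6.0a, cutadapt 1.8.1 and FastQC 0.11.7 on GRCh38. The sources used here do not give the annotation release or the strand setting. The labels' protocols mention quantile normalisation, which these counts do not carry, so it was tried as an alternative. Reads given to no single gene (17.8%, 20.3%, 16.7% and 14.4% in control 1, control 2, KO 1 and KO 2) were left out.

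Names and positions came from GENCODE 29, in which 56753 identifiers matched. Genes were filtered with filterByExpr (minimum count 10), scaled with TMM factors and compared with edgeR 4.0.16 (R 4.3.3; quasi-likelihood test, two-sided, Benjamini-Hochberg adjustment over 19027 genes, threshold 0.05). The common dispersion was 0.132. Standard errors were derived from the estimate and its F statistic. The test was first tried on simulated counts. Alternatives were other scalings, DESeq2 1.42.0, limma 3.58.1 (voom, or trend after quantile normalisation), the legacy fit, other filters and membership thresholds, the replicate number as a block and each library left out.

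The rule for names took the 12 most abundant members, the 8 lowest and 8 highest log2 fold changes among members whose groups did not overlap, any called member, members on short role lists, 3 genes on each side of the level threshold, and the nearest coding gene within 100 kb. Members, lists and tests were chosen with earlier results of these data known.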

Additional observations from a re-analysis of the deposited data

How the results depend on the processing

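None of the 121 members was called by edgeR in the unblocked fit of all 4 libraries. DESeq2 called 2 lower, and the replicate block, with the replicate number as a term, also called 2 lower (LINC00707 and LINC02582). Deviations from the group means correlated at 0.326 between control 1 and KO 1, but the numbers come with 2 pairs only and are not known to mark a shared culture or day. With 1 library left out, 0 to 12 members were called lower and 0 to 6 higher, with the high ends without KO 1. Members lower in both KO libraries numbered 44 with membership from a mean of 0.5 CPM and 37 to 59 with 1 library left out, where fewer values have to stay apart. Members higher in both numbered 9 with upper-quartile factors, 9 with library sizes alone, 23 with quantile normalisation and 22 to 43 with 1 library left out. For these counts the shares over all genes under the same settings are not given, and membership from 0.5 CPM is a larger set. The median log2 fold change was -0.26 with library sizes alone, -0.0081 with quantile normalisation and -0.21 to -0.045 with 1 library left out, nearest to 0 without control 2. The summed log2 ratio was -0.48 to -0.20 with 1 library left out. Over all genes, 5 were called with all 4 libraries, 0 with upper-quartile factors, library sizes alone, limma-voom or a mean of at least 1 CPM, 1 with the legacy fit or quantile normalisation, 8 with no filter, 60 with DESeq2, 76 with the replicate block, and 3 to 1096 with 1 library left out. The cause of these shifts was not tested.

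Of 630 values recomputed for 45 named members under 14 settings, 563 kept their direction and side of the threshold, 22 kept their direction and became called, and 45 changed direction, in 16 members. With upper-quartile factors LINC00665 was at -0.047 and LINC00599 at -0.025. With library sizes alone LINC00665 was at -0.071, LINC00599 at -0.047 and LINC00662 at -0.044. With limma-voom LINC00665 was at -0.020, LINC00599 at -0.058, LINC01405 at -0.41, LINC00963 at -0.025, LINC00852 at -0.038, LINC00664 at -2.13, LINC01515 at -1.71, LINC02525 at -0.044 and LINC01139 at -0.30. With quantile normalisation LINC00665 was at -0.12, LINC00599 at -0.078, LINC01405 at -0.46, LINC00664 at -1.28, LINC01515 at -0.78 and LINC01139 at -0.15. With a mean of at least 1 CPM LINC00665 was at -0.0030. With the replicate block LINC00665 was at -0.013, LINC00599 at -0.020 and LINC01405 at -0.38. With 1 library left out the ranges were -0.48 to 0.42 for LINC00665, -0.17 to 0.11 for LINC01578, -0.62 to 0.52 for LINC00599, -2.29 to 1.20 for LINC01405, -0.43 to 0.14 for LINC01194, -0.26 to 0.38 for LINC00662, -2.08 to 1.57 for LINC00963, -1.18 to 1.11 for LINC00852, -9.68 to 2.6 for LINC00664, -8.55 to 2.46 for LINC01515, -1.32 to 2.65 for LINC01833, -1.41 to 1.55 for LINC01234, -2.58 to 1.95 for LINC02525, -1.94 to 1.16 for LINC01139, -1.22 to 2.02 for LINC00663 and -2.83 to 0.62 for LINC02335. The lowest values of LINC00664 and LINC01515 rest on 0 reads and depend on the prior count. The sum without LINC00678 and the backgrounds by level were chosen after seeing the data.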
